A study of Mus musculus with 18 samples.

Results

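Bmf and 8 other genes of the Bcl2 family, Bcl2l11, Bid, Bad, Bik, Bak1, Bcl2, Bcl2l1 and Mcl1, were examined in the livers of offspring from frozen germ cells. Bmf was selected on its measured fall in both groups of pups against the controls, a choice made on the edgeR values of these libraries, and the other genes were taken as its family context. The members were therefore 9 of 32285 genes in the count table, and all 9 passed the filter on low counts among 12847 genes tested. Bulk liver RNA of B6D2F1 mice was sequenced in 18 libraries, 6 in each of 3 groups, and the labels give the genotype of all as wild-type. Space pups, 10 weeks old, traced back to germline stem (GS) cells, a culture of spermatogonial stem cells made from DBA/2 testes, that spent 6 months frozen aboard the International Space Station (ISS). Ground pups were of the same age, and their GS cells had been kept frozen on Earth for as long. In both cases the thawed cells had been transplanted into testes of W mice, which lack most germ cells of their own, and the recipients were mated with C57BL/6 females. By the study's methods the donor mice carried an act-EGFP transgene, which pups can inherit and controls lack, and whether the pups sequenced carried it is not given. The controls were wild-type BDF1 mice, of the same F1 cross but born through natural mating, and their age is not given in the sources used here. Fewer recipients became fertile in either group than the pups sequenced from it, so some pups of a group must share a father. Which pups do is not given, and the libraries of a group are therefore not fully independent. The study's text also speaks of fewer wild-type mice than there are BDF1 libraries, and how they relate is not given, so n counts libraries. The labels call the 6 samples of a group biological replicates but name no animals or litters.

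Proteins of the Bcl2 family decide whether the outer membrane of mitochondria becomes permeable, the step that releases cytochrome c and starts the caspases. The effectors Bax and Bak1 form the pores, guardians such as Bcl2, Bcl2l1 (Bcl-xL) and Mcl1 hold them in check, and the BH3-only proteins, which share only a short helix with the rest of the family, bind the guardians or the effectors and tip the balance. Bmf is a BH3-only protein that is tethered to the cytoskeleton through dynein light chain, as is its relative Bcl2l11 (Bim). In the liver, Bcl2l1 and Mcl1 are known to be needed for the survival of hepatocytes, and Bid carries the death receptor signal to mitochondria.

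Total counts per library were between 15407450 and 20562351, and the 3 counts that a gene with 0 counts may still have amount to between 0.134 and 0.236 CPM (counts scaled to a common library size, here with TMM factors). That limit covers counting error only. In 9 libraries Xist, the RNA that coats an inactive X chromosome, reached 12218 to 21557 counts, in the other 9 it had at most 187, and 4 Y-linked genes showed the opposite pattern. Each group held 3 Xist-high and 3 Xist-low libraries. The study used males and females, but the labels give no sex, so this class served as a term in the fits and not as a group of the study. Alb took between 17.6% and 24.1% of all counts in the 6 Xist-high libraries of pups and between 4.47% and 8.03% in the other 12. All 6 hepatocyte markers had counts in every group. The summed level of 5 haploid germ cell markers reached 46.1 CPM in Space replicate 6 and at most 4.75 CPM elsewhere. Without that library the log2 change of Bmf in Space pups was -2.81 and none of the other members was called.

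The 9 genes lie on 7 chromosomes of mm10. Bmf (ENSMUSG00000040093, chromosome 2, 118528757 to 118549687, minus strand) has 5253 bases of merged exons in GENCODE M21. Bcl2l11 (chromosome 2, 128126038 to 128162547, plus strand) and Bcl2l1 (chromosome 2, 152780668 to 152831728, minus strand) share that chromosome. Exons of Bid, Bad, Bak1 and Bcl2 overlap between 524 and 628 bases of a gene on the opposite strand. The library kit keeps the strand, but the strand setting of the counting is not given in the sources used here, so counts of these 4 members may hold reads of the partner. No exon of Bmf, Bcl2l11, Bik, Bcl2l1 or Mcl1 overlaps another gene. The sequences upstream of the RefSeq start sites (GRCm38.p6) are shown for Bmf, the member with the difference, and for Bcl2l11, its BH3-only relative. Bmf has 3 such sites on the minus strand. The 250 bases before them lie at chr2:118544588-118544837, chr2:118549687-118549936 and chr2:118547600-118547849. The first of the windows of Bcl2l11 lies at chr2:128125788-128126037 on the plus strand. Capitals mark the FoxO core GTAAACA.
Bmf window 1: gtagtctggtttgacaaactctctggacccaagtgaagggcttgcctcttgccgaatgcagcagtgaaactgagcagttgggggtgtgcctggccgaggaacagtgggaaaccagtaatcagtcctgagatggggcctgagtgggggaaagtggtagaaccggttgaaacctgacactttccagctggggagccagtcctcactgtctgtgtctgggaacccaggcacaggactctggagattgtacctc
Bmf window 2: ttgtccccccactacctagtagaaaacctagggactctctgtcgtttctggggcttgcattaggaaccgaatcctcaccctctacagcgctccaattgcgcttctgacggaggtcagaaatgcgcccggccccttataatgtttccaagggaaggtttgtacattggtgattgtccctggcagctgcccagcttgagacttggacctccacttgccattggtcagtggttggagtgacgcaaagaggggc
Bmf window 3: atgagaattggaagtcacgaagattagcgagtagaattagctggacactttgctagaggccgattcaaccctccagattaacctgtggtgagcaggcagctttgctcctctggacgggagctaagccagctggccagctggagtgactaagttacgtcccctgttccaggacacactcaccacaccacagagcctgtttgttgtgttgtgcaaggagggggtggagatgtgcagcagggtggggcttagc
Bcl2l11 window 1: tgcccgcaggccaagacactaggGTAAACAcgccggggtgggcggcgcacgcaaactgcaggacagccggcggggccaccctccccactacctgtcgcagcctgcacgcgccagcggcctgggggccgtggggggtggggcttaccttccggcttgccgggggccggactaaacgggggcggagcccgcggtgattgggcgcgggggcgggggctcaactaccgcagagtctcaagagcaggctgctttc
Both strands were searched for 5 motifs. The FoxO core GTAAACA was present in 3.17% of 32851 mouse windows of the same length, the insulin response element CAAAACAA in 2.21%, the E-box CACGTG in 6.02%, the D-box TTATGTAA in 0.819% and the glucocorticoid receptor motif AGAACA in 16.1%. None of the 5 was found in the 3 windows of Bmf, and Bcl2l11 held 1 FoxO core 227 bases before its start in the window shown and none of the 5 motifs in its other window, chr2:128127325-128127574, which is not printed. These are matches of letters only.

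Bmf was low in the liver of every pup and varied widely among the controls. Its level was between 1.44 and 2.41 CPM in Space pups (median 1.76) and between 1.24 and 2.35 CPM in Ground pups (median 1.60). In BDF1 mice it ran from 2.87 to 30.7 CPM with a median of 9.24 CPM. The highest pup thus lay below the lowest control, although these neighbours, at 42 and 55 counts, were close to each other. Bmf had between 21 and 42 counts in a pup library, so its level there rests on few reads. The mean of BDF1 mice was 6.63 times that of Space pups and 7.45 times that of Ground pups. In the fit over all genes, the log2 change of Bmf was -2.72 (SE 0.49, n = 6) in Space pups and -2.90 (SE 0.50, n = 6) in Ground pups. Because Bmf was chosen for these differences, they are given as a description without a test. For scale, every Space library lay below every BDF1 library in 1.61% of the 12847 genes tested, every Ground library did so in 1.64%, and all 12 pups did so in 0.397%. Both pup groups were compared with the same 6 controls, so these values are not independent of each other. In bulk tissue, fewer cells that express Bmf and less Bmf RNA per cell cannot be told apart.

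**Figure D1:**
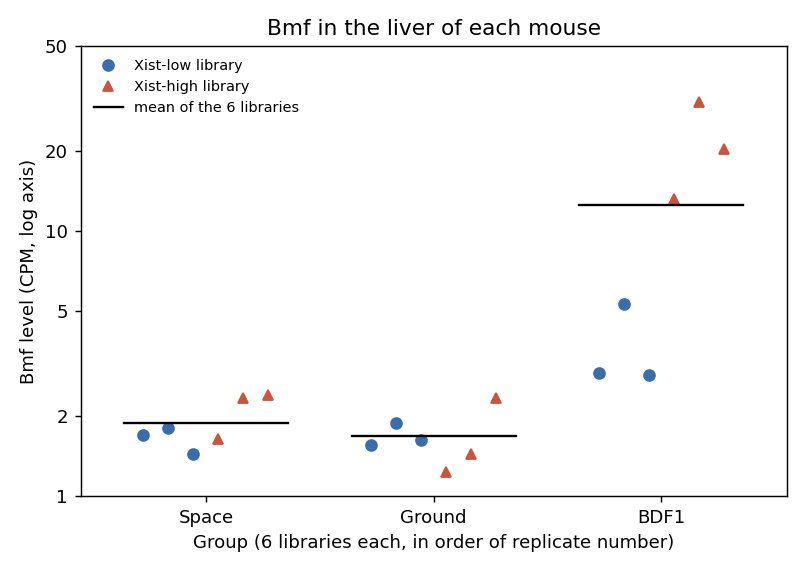
The level of Bmf (CPM, log axis) is plotted for each of the 18 libraries by group, with circles for Xist-low and triangles for Xist-high libraries and a line at the mean of the 6 libraries. The 12 pups lie between 1.24 and 2.41 CPM, and the 3 Xist-high BDF1 libraries lie between 13.2 and 30.7 CPM, above all others.

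The spread among the controls followed the Xist class. The 3 Xist-low BDF1 libraries held 2.92, 5.31 and 2.87 CPM of Bmf, and the 3 Xist-high ones held 13.2, 30.7 and 20.4 CPM. The groups of 3 did not overlap, and their means differed 5.79 times. Such a pattern was common among the controls, where 20.3% of all genes tested had every Xist-high library above every Xist-low one. In pups the classes overlapped. Xist-low pups held between 1.44 and 1.89 CPM and Xist-high pups between 1.24 and 2.41 CPM, with means that differed 1.14 times. The difference between controls and pups was accordingly 11.2 times in Xist-high libraries and 2.21 times in Xist-low ones. In the edgeR fit, the log2 change in Xist-high libraries minus that in Xist-low ones, the group by class interaction, was -2.15 for Space pups (SE 0.46) and -2.56 for Ground pups (SE 0.46). These values come from the same contrasts that led to the choice of Bmf and are given without a test. Without the 3 Xist-high BDF1 libraries, a fit added after the data were seen, the log2 change of Bmf was -0.96 (SE 0.25) in Space pups and -1.14 (SE 0.25) in Ground pups.

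The summed level of 5 erythroid markers also set these 3 control libraries apart, at 32.3 to 87.7 CPM against 102 to 722 CPM in the other 15 libraries. The clock output gene Dbp was between 96.0 and 204 CPM in the Xist-high controls, between 0.84 and 1.10 CPM in the Xist-low controls, between 72.8 and 107 CPM in Xist-high pups and between 1.90 and 5.98 CPM in Xist-low pups. Dbp thus overlapped between Xist-high controls and Xist-high pups only through BDF1 replicate 4, at 96.0 CPM. The other Xist-high controls, at 200 and 204 CPM, lay above every pup. Dbp separated the classes in all groups, whereas Bmf separated them in the controls. The time of day at which livers were taken is not given in the sources used here. The part of red cells, of the time of day or of sex in the level of Bmf was not tested.

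Among the other BH3-only members, Bid came closest to a difference. Bid, which caspase 8 cleaves after death receptor signals, was between 11.9 and 14.8 CPM in Space pups (median 13.7), between 12.8 and 18.1 CPM in Ground pups (median 16.3) and between 15.3 and 18.6 CPM in BDF1 mice (median 16.9). Every Space pup lay below every control, while the Ground pups overlapped both. Against the controls Space pups had a log2 change of -0.31 (edgeR adjusted p = 0.0583, SE 0.09) and missed the threshold of 0.05. With the replicate number as a block it was also -0.31 and passed (adjusted p = 0.0429, where 6.02% of genes were called), and it passed with Xist class in the fit (adjusted p = 0.0235, where 10.4% of genes were). Without the 3 Xist-high BDF1 libraries it was -0.23 (adjusted p = 0.286). In Ground pups the log2 change was -0.08 (adjusted p = 0.637, SE 0.09).

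Bik, a BH3-only protein of the endoplasmic reticulum, was low throughout, and its values spread widely. It was between 0.550 and 3.13 CPM in Space pups (median 2.36), between 0.656 and 4.79 CPM in Ground pups (median 2.65) and between 2.51 and 7.23 CPM in BDF1 mice (median 3.97). The lowest values, of 7, 10 and 11 counts, were all from Xist-high pups, and the groups overlapped. The log2 change was -1.08 (adjusted p = 0.171, SE 0.45) in Space pups and -0.87 (adjusted p = 0.271, SE 0.44) in Ground pups. Among Xist-low libraries alone, where 8.56% of genes were called, it was -1.28 in Space pups and was called by edgeR (adjusted p = 0.0465).

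Bcl2l11, the BH3-only activator Bim, had similar medians in the 3 groups and a wider range in the pups. It was between 2.00 and 10.7 CPM in Space pups (median 4.00), between 2.36 and 12.3 CPM in Ground pups (median 3.44) and between 2.73 and 6.35 CPM in BDF1 mice (median 4.35). The highest values, 12.3 and 10.7 CPM, were from Ground replicate 5 and Space replicate 4, both Xist-high. In Space pups the Xist-high libraries, at 5.06 to 10.7 CPM, all lay above the Xist-low ones, at 2.00 to 2.94 CPM. In Ground pups the classes overlapped, at 3.24 to 12.3 CPM and 2.36 to 3.63 CPM. The log2 change was 0.14 (adjusted p = 0.899, SE 0.44) in Space pups and 0.28 (adjusted p = 0.775, SE 0.44) in Ground pups. Without Space replicate 4 the former was -0.23, and without Ground replicate 5 the latter was -0.15. Among Xist-low libraries alone the log2 changes were -0.58 in Space and -0.41 in Ground pups. Among Xist-high libraries they were 0.50 and 0.63, and edgeR called none of these. Bad, which 14-3-3 proteins hold in the cytosol when it is phosphorylated, was between 9.49 and 12.8 CPM in Space pups, between 9.84 and 12.4 CPM in Ground pups and between 10.0 and 14.8 CPM in BDF1 mice. Its log2 changes were -0.12 (adjusted p = 0.573, SE 0.11) and -0.13 (adjusted p = 0.526, SE 0.11).

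**Figure D2:**
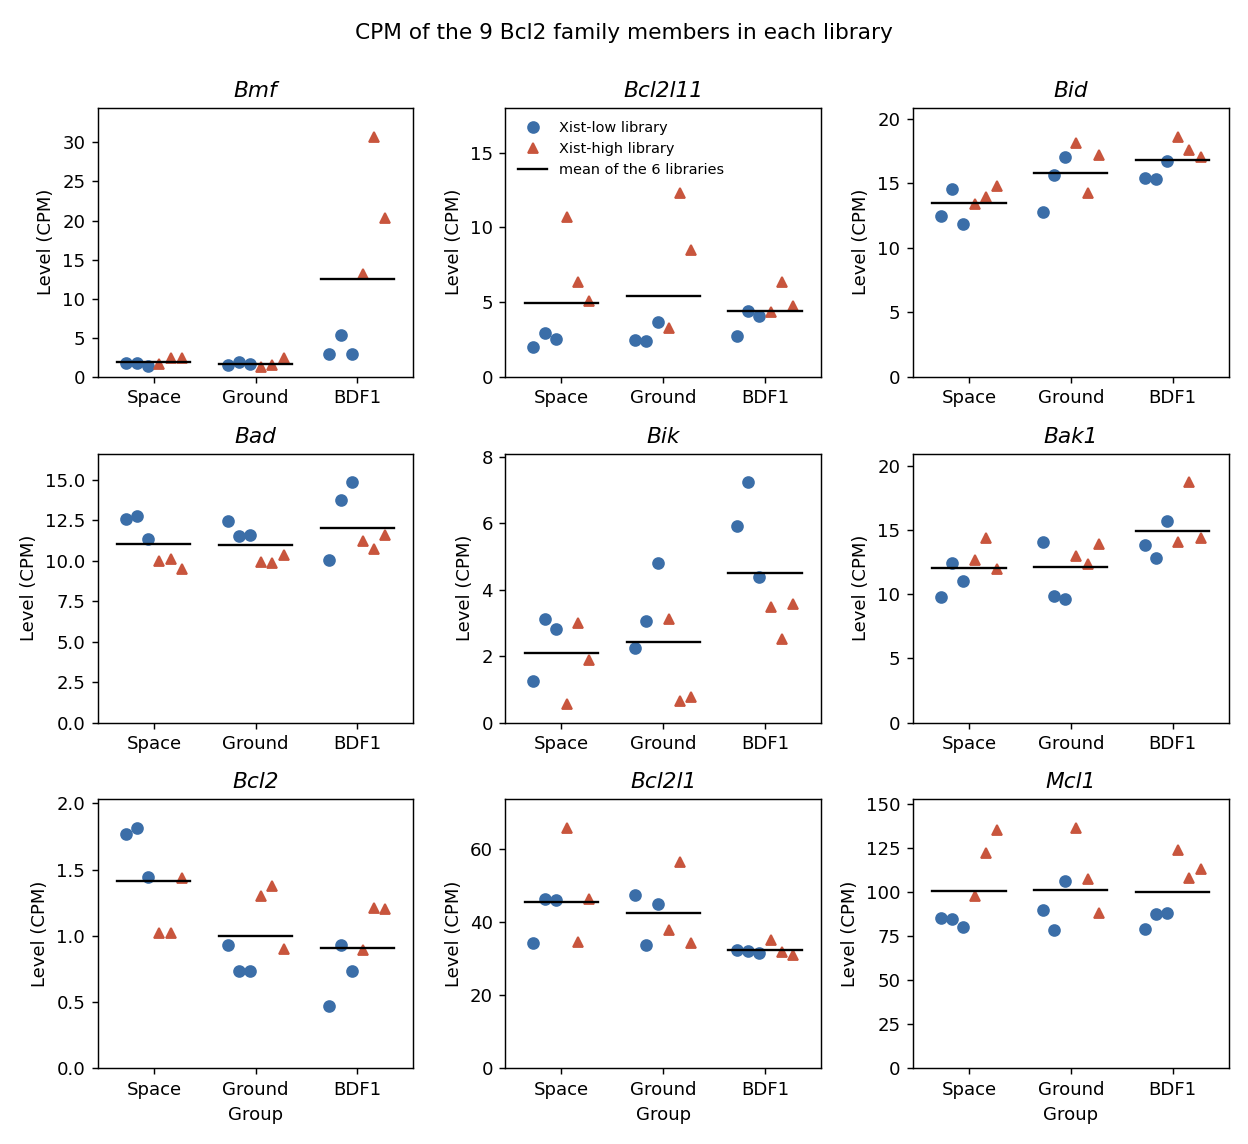
The level (CPM) of each of the 9 members is plotted for each library by group, with circles for Xist-low and triangles for Xist-high libraries and a line at the group mean; each axis starts at 0. Space pups lie below the controls for Bid, between 11.9 and 14.8 against 15.3 to 18.6 CPM, and Bcl2l1 spreads more in pups, up to 65.7 CPM, than in controls, at 30.9 to 35.0 CPM.

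The effector Bak1 had lower means in both groups of pups and did not pass the test. It was between 9.78 and 14.4 CPM in Space pups (median 12.2), between 9.59 and 14.1 CPM in Ground pups (median 12.7) and between 12.8 and 18.7 CPM in BDF1 mice (median 14.2). The highest control, replicate 5, was also the library with the most Bmf. The log2 change was -0.31 (adjusted p = 0.152, SE 0.12) in Space pups and -0.30 (adjusted p = 0.166, SE 0.12) in Ground pups. With total counts in place of TMM, a scaling that lowers the median change of all genes against controls, edgeR called Bak1 in both groups, at -0.58 in Space pups (adjusted p = 0.0226) and -0.58 in Ground pups (adjusted p = 0.0212).

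Of the guardians, Bcl2l1 was higher on average in both groups of pups without passing the test. It was between 34.3 and 65.7 CPM in Space pups (median 46.1), between 33.8 and 56.5 CPM in Ground pups (median 41.2) and between 30.9 and 35.0 CPM in BDF1 mice (median 32.0). The controls lay close together, and the lowest pups reached into their range. The log2 change was 0.49 (adjusted p = 0.0696, SE 0.15) in Space pups and 0.39 (adjusted p = 0.141, SE 0.15) in Ground pups. With Xist class in the edgeR fit it was 0.49 in Space pups and passed (adjusted p = 0.0405), and it also passed without Space replicate 1 and without Space replicate 5. With the replicate block it was 0.48 and did not pass (adjusted p = 0.0821), and with total counts it was 0.21 in Space pups (adjusted p = 0.375) and 0.12 in Ground pups (adjusted p = 0.626). Bcl2 itself was hardly expressed, between 1.02 and 1.81 CPM in Space pups, between 0.735 and 1.38 CPM in Ground pups and between 0.470 and 1.21 CPM in BDF1 mice. Its log2 change was 0.64 (adjusted p = 0.147, SE 0.25) in Space pups and 0.13 (adjusted p = 0.821, SE 0.25) in Ground pups. Among Xist-low libraries alone it was 1.24 in Space pups and was called by edgeR (adjusted p = 0.0354), and among Xist-high libraries it was 0.07 (adjusted p = 0.906). The interaction of Bcl2 with the Xist class in Space pups was -1.16 (adjusted p = 0.128, SE 0.41). Mcl1, a short-lived guardian, was between 80.2 and 135 CPM in Space pups, between 78.5 and 137 CPM in Ground pups and between 78.9 and 124 CPM in BDF1 mice. Its ranges overlapped almost entirely, with log2 changes of 0.01 (adjusted p = 0.978, SE 0.16) and 0.02 (adjusted p = 0.968, SE 0.16).

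Thus 0 of the 8 other members were called in Space pups by edgeR, where 3.8% of all genes tested were, and 0 of 8 in Ground pups, where 3.81% were. At an unadjusted p under 0.05, 5 of 8 passed in Space pups (Bid, Bcl2l1, Bik, Bcl2 and Bak1) and 2 of 8 in Ground pups (Bcl2l1 and Bak1), against 20.8% and 20.7% of all genes. DESeq2 called 2 of 8 (Bid and Bcl2l1) in Space pups and 8.02% of genes, and limma voom called 3 of 8 (these and Bcl2) and 10.2% of genes. In Ground pups both tools called 0 of 8, with 8.46% and 4.29% of genes. The number of members called in Space pups therefore depended on the tool. Scaling by total counts in place of TMM moved the median log2 change of all genes by -0.25 in Space and -0.26 in Ground pups, and with it 66 of 715 called genes were higher in Space pups, against 301 of 488. Small changes such as those of Bid, Bak1, Bcl2l1, Bcl2l11 and Mcl1 are to be read relative to that shift.

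**Figure D3:**
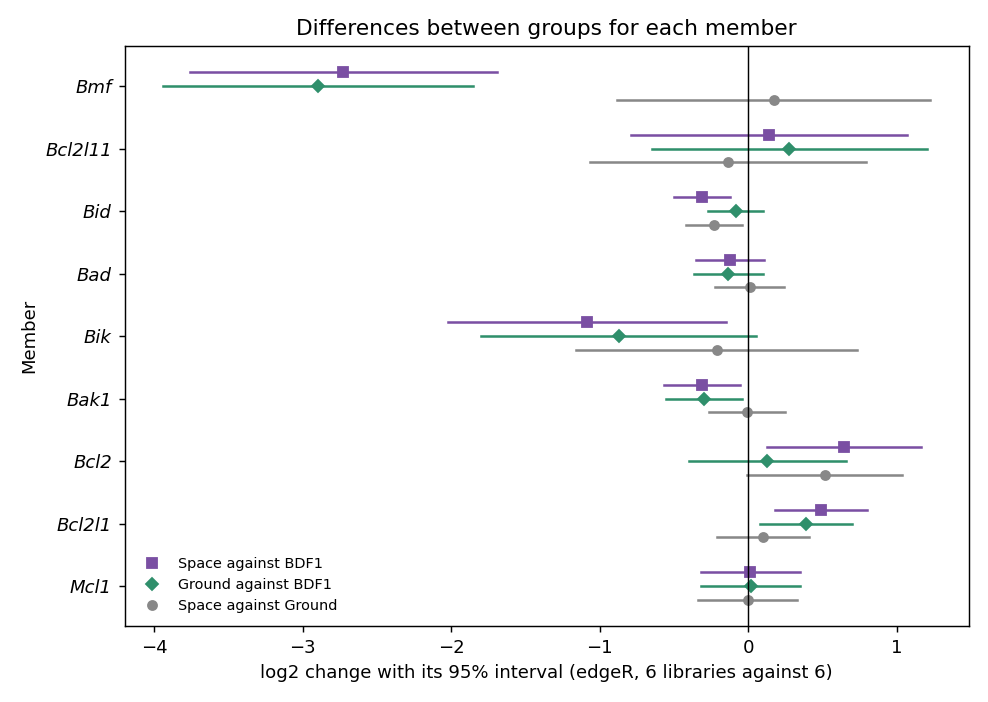
The log2 change of each member in 3 comparisons is plotted with its 95% interval from the edgeR fit, not adjusted for the number of genes, 6 libraries against 6; the line marks 0. Bmf lies at -2.72 and -2.90 against the controls, and the next in size, Bik, at -1.08 and -0.87. Bmf was chosen on these differences from the controls, so its intervals there are a description and not a test.

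Space and Ground pups were compared directly to ask whether storage on the ISS mattered. Bmf was at 1.44 to 2.41 CPM in Space pups and 1.24 to 2.35 CPM in Ground pups, a log2 difference of 0.17 (SE 0.50, 95% interval -0.88 to 1.22). Because Bmf was chosen for being low in both groups, which favours a small difference between them, this is given without a test. Bid had the smallest p, with a log2 difference of -0.23 (adjusted p = 0.461, SE 0.09) and an interval from -0.42 to -0.04, and its levels overlapped. For Bcl2 the difference was 0.52, with an interval from -0.0072 to 1.04. It was 1.06 among Xist-low libraries (edgeR adjusted p = 0.196) and -0.040 among Xist-high ones (adjusted p = 0.976). For the other 6 members the differences were between -0.21 and 0.10. No member had every Space library below every Ground library, where 0.14% of genes did. None was called, and edgeR called 0% of all genes tested in this comparison (9.23% at an unadjusted p under 0.05, 1 of the 8 members other than Bmf, Bid). DESeq2 called 30 genes and limma voom 0, none of them a member. A difference of a member smaller than these intervals was not detectable with 6 libraries a group.

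The members were also set out by Xist class within the groups, beside the share of all genes with the same pattern. In BDF1 mice, Bid and Mcl1 joined Bmf in having every Xist-high library above every Xist-low one (3 of 9 members, against 20.3% of genes tested), and Bik had the reverse (1 of 9, against 21.2%). Mcl1 was between 108 and 124 CPM in Xist-high controls and between 78.9 and 88.5 CPM in Xist-low ones. In the 12 pups, Bad was lower in every Xist-high library, between 9.49 and 10.4 CPM, than in every Xist-low one, between 11.3 and 12.8 CPM (1 of 9, against 6.8%). No member was higher in every Xist-high pup, where 6.74% of genes were. For the 8 members other than Bmf, no interaction with the class was called in any comparison (against 3.45% of genes for Space and 2.91% for Ground pups against BDF1 mice), and at an unadjusted p under 0.05 Bcl2 passed in Space against BDF1 and in Space against Ground (1 of 8 each, against 19.3% and 7.81% of genes) and none in Ground against BDF1 (17.5%).

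Levels of different genes were compared per length, in TPM, the count per base of merged exon scaled to the same sum in each library. Mcl1 led with a mean of 72.9 TPM over the 18 libraries, between 42.7 and 106 TPM, and did not overlap the next. Bcl2l1 followed with 21.2 TPM, then Bak1 with 13.5, Bad with 11.1, Bid with 10.8 and Bik with 5.03 TPM. Bmf was the seventh with 2.80 TPM, between 0.508 and 17.6 TPM, before Bcl2l11 with 1.42 TPM and Bcl2 with 0.296 TPM. Neighbours from Bcl2l1 to Bcl2l11 overlapped in their ranges, while Bcl2l11 and Bcl2 did not. The place of Bmf depended on the group. In the 3 Xist-high controls it held 11.7 TPM, the sixth place and overlapping Bad, while in Space pups it held 0.811 TPM and in Ground pups 0.733 TPM, below Bcl2l11. Of the summed TPM of the 9 members, Bmf made up 3.89% ± 3.26 (SD, n = 6) in BDF1 mice, 0.653% ± 0.0804 (SD, n = 6) in Space pups and 0.600% ± 0.200 (SD, n = 6) in Ground pups. Mcl1 alone made up a mean of 50.3% of that sum in BDF1 mice, 53.3% in Space pups and 53.2% in Ground pups. Because TPM values share 1 total per library, the large share of Alb in Xist-high pups lowers the TPM of all other genes there.

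**Figure D4:**
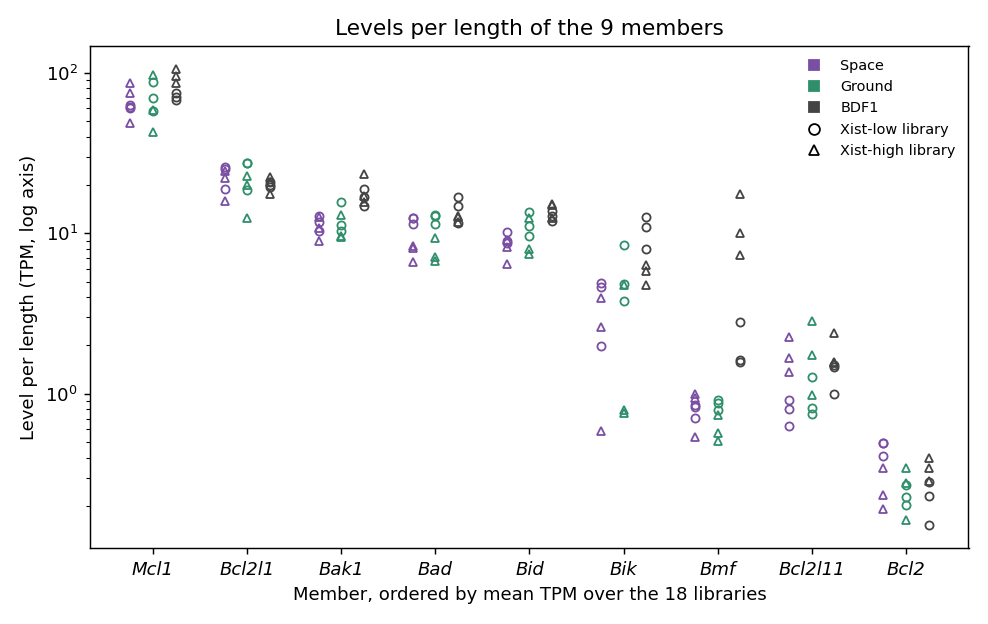
The level per length (TPM, log axis) of each member is plotted for each library, ordered by mean, with colours for the groups and circles and triangles for Xist-low and Xist-high libraries. Mcl1 lies above all others at 42.7 to 106 TPM, and Bmf has the widest range as a ratio of highest to lowest, from 0.508 to 17.6 TPM.

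Of 16 further family genes, 8 passed the filter, among them the effectors Bax and Bok, the guardian Bcl2l2 and the BH3-only Bbc3 (Puma). None was called by edgeR in any comparison (against 3.8% of genes in Space and 3.81% in Ground pups), and at an unadjusted p under 0.05 only Bbc3 passed, in both comparisons with controls (1 of 8, against 20.8% and 20.7%). Bbc3 was between 22.6 and 24.3 CPM in Xist-high controls and between 5.36 and 14.4 CPM in the other 15 libraries, so that the 3 controls with the most Bmf also had the most Bbc3. Its log2 change was -0.61 (adjusted p = 0.185, SE 0.26) in Space pups and -0.80 (adjusted p = 0.0870, SE 0.26) in Ground pups. Bax was lower in these controls, between 12.8 and 17.5 CPM, than in the other 15 libraries, between 18.1 and 27.5 CPM. Bbc3 and Bax were chosen for mention after their values were seen. The BH3-only Pmaip1 (Noxa) had at most 11 counts and Hrk at most 24 counts in a library, and Bcl2l10 had none.

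In the death receptor arm, the adaptor kinase Ripk1 rose in Ground pups, with a log2 change of 0.41 (edgeR adjusted p = 0.0305, SE 0.10). It was 1 of 9 tested, against 1.76% of genes called higher, and 0 of 9 were called in Space pups (against 3.8%). At an unadjusted p under 0.05, 4 of 9 passed in Ground pups (Ripk1, Fas, Tnfrsf1a and Tnfsf10, against 20.7% of genes) and 1 of 9 in Space pups (Ripk1, against 20.8%). Ripk1 was called in 11 of 18 fits with 1 library left out, and with total counts its change was 0.14 (adjusted p = 0.497) and was not called. Nor was it called without the filter (0.39, adjusted p = 0.0589), among Xist-low (0.46, adjusted p = 0.0822) or Xist-high libraries (0.34, adjusted p = 0.118), or without the 3 Xist-high controls (0.48, adjusted p = 0.111). The 9 partners and turnover factors of the members included the dynein light chains Dynll1 and Dynll2, which anchor Bcl2l11 and Bmf. Of these 9, 0 were called in Space pups, in Ground pups or between the pup groups, against 3.8%, 3.81% and 0% of genes. At an unadjusted p under 0.05, 1 of 9 passed between the pup groups, against 9.23% of genes. Against the controls 0 of 9 did, where 20.8% (Space) and 20.7% (Ground) of genes did.

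The interaction with the Xist class was called in the death receptor arm for Cflar (-0.68, SE 0.16, edgeR adjusted p = 0.0248) and Tnfrsf1a (0.59, SE 0.14, adjusted p = 0.0258) in Space pups (2 of 9, against 3.45% of genes). In Ground pups neither was called (0 of 9, against 2.91%), at -0.42 for Cflar (adjusted p = 0.169) and 0.52 for Tnfrsf1a (adjusted p = 0.0514). With 1 library left out the Space values were called in 11 and 12 of 18 fits. Tnfrsf1a was not called with total counts (0.31, adjusted p = 0.289) or without the filter (0.57, adjusted p = 0.0796). Cflar, the inhibitor of caspase 8, was between 54.3 and 70.9 CPM in Xist-high Space pups and between 106 and 116 CPM in Xist-low ones.

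Hormone and nutrient responsive genes were listed because several Bcl2 family genes are known to respond to such signals. Of 10 genes that FoxO factors induce, 0 were called by edgeR in any comparison (against 3.8% of genes in Space and 3.81% in Ground pups). Their median log2 changes were -0.01 in Space and 0.15 in Ground pups. At an unadjusted p under 0.05, 2 of 10 passed in each, Igfbp1 in both, against 20.8% and 20.7% of genes. All 9 glucocorticoid induced genes had positive log2 changes in both groups, with medians of 1.61 and 1.27 against 0.00046 and 0.021 for all genes tested. With total counts, 8 of 9 were positive in each group, with medians of 1.25 and 1.11. By the edgeR test, Per1 (2.21, SE 0.54, adjusted p = 0.0344) and Fkbp5 (1.93, SE 0.51, adjusted p = 0.0442) rose in Ground pups (2 of 9, against 1.76%). In Space pups 0 of 9 passed (against 3.8% of genes). At an unadjusted p under 0.05, 6 of 9 passed in Space and 5 of 9 in Ground pups, against 20.8% and 20.7% of genes. Fkbp5, a chaperone of the glucocorticoid receptor, was between 16.3 and 43.8 CPM in controls and between 30.6 and 240 CPM in Ground pups, and the groups overlapped. With 1 library left out, Per1 was called in 11 and Fkbp5 in 5 of 18 fits, and neither without the 3 Xist-high controls.

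The glucocorticoid induced genes also differed between the Xist classes, and not in 1 direction. In Space pups the interaction was called for 3 of 9 (against 3.45% of genes), the metallothioneins Mt1 (4.28, SE 0.81, edgeR adjusted p = 0.00826) and Mt2 (4.70, SE 1.03, adjusted p = 0.0186) and, with the opposite sign, Tsc22d3 (-1.72, SE 0.44, adjusted p = 0.0418). Mt1 was between 1076 and 1639 CPM in Xist-high Space pups, between 27.3 and 66.7 CPM in Xist-low ones and between 61.6 and 214 CPM in controls. In Ground pups it was called for Fkbp5 alone (2.15, SE 0.54, adjusted p = 0.0402; 1 of 9, against 2.91%). Fkbp5 was between 108 and 240 CPM in Xist-high Ground pups, and the Xist-low ones, between 30.6 and 56.5 CPM, overlapped the controls. With 1 library left out, the interaction was called in 18 of 18 fits for Mt1, 14 for Mt2, 6 for Tsc22d3 and 7 for Fkbp5. Of 15 clock genes, only Per1 was called between groups, in Ground pups (1 of 15, against 3.81% of genes). An interaction with the Xist class was called for 7 in Space pups (Nr1d2, Tef, Npas2, Per3, Ciart, Per2 and Dbp) and 4 in Ground pups (Tef, Per3, Per2 and Dbp), against 3.45% and 2.91% of genes. With 1 library left out, the Space interaction was called in 12 of 18 fits for Nr1d2, 8 for Ciart and 18 for the others. The Ground interaction was called in 16 for Tef and 18 for the others. Per3 was between 27.5 and 60.7 CPM in Xist-high controls and between 0.63 and 0.85 CPM in Xist-low ones, while pups held 19.4 to 32.5 CPM and 2.52 to 5.55 CPM. Per3 and Dbp thus had the steep class difference of Bmf in controls, but unlike Bmf they kept the classes apart in pups. This did not hold for every clock gene named. Ciart was between 2.13 and 12.3 CPM in Xist-high controls and between 0.0522 and 0.329 CPM in Xist-low ones. In Space pups its classes overlapped, at 2.12 to 5.81 CPM and 1.59 to 2.83 CPM. In Ground pups they stayed apart, with the Xist-low ones at 1.17 CPM or less.

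The genes most like Bmf were sought by Pearson's r of log2 CPM over the 18 libraries among the 11724 genes that averaged 1 CPM or more. Among the most alike were Rab23 (0.92), a small GTPase, Gnpnat1 (0.90), Abhd12 (0.89), Vsig10 (0.87), Tcp11l1 (0.86), Psmb10 (0.86), Zer1 (0.86), AW112010 (0.86) and Mob3a (0.86). The most opposed were Angptl4 (-0.92), an inhibitor of lipoprotein lipase, the water channel Aqp4 (-0.92) and Il6ra (-0.91), a subunit of the interleukin 6 receptor. Points in such a correlation share the group, the class and the library, so the values are descriptions without a test. Rab23 was between 13.8 and 18.9 CPM in Xist-high controls, between 7.52 and 9.64 CPM in Xist-low controls and between 5.36 and 9.42 CPM in pups. Its high values came from the same 3 libraries as those of Bmf, while Xist-low controls overlapped the pups. Angptl4 was between 19.6 and 40.3 CPM in Xist-high controls, between 60.9 and 88.5 CPM in Xist-low controls and between 113 and 232 CPM in pups, an order without overlap and the reverse of that of Bmf. Without the 2 libraries farthest from the median of Bmf, BDF1 replicates 5 and 6, r was 0.77 for Rab23 and -0.80 for Angptl4. Over the 15 libraries without the Xist-high controls, r was 0.55 for Rab23 and -0.63 for Angptl4. Over the named genes it then ran from 0.35 for Mob3a to 0.75 for Psmb10, and from -0.70 for Aqp4 to -0.57 for Il6ra among the opposed, so these values were smaller in size without the 3 libraries but by unequal amounts. By rank (Spearman's rho) only Psmb10 stayed among the 10 most alike. After the group means were subtracted, Ciart (0.92), Hamp2 (0.92), Fggy (0.91) and Rab23 (0.88) were among the most alike. Ciart is a clock repressor and Hamp2 a relative of the iron hormone hepcidin. Among the other members, r with Bmf over the 18 libraries ran from -0.54 for Bcl2l1 to 0.62 for Bak1, with Bid at 0.54.

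**Figure D5:**
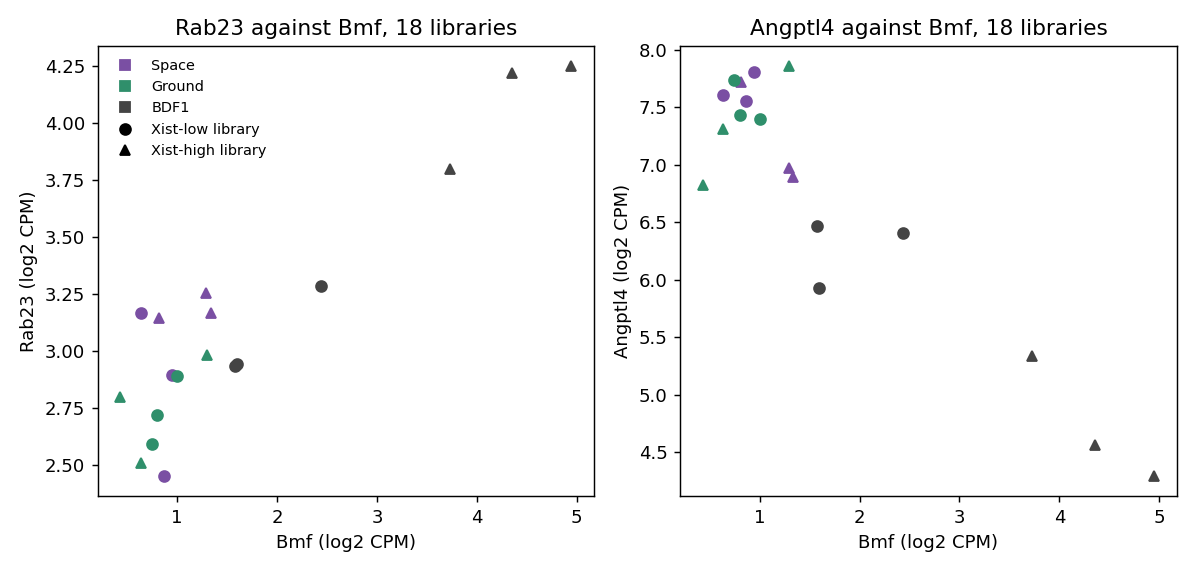
The log2 CPM of Rab23 (left) and Angptl4 (right) is plotted against that of Bmf for the 18 libraries, with colours for the groups and circles and triangles for Xist-low and Xist-high libraries. The 3 Xist-high controls stand apart at high Bmf in both plots, where r over all libraries is 0.92 and -0.92.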

How the data were processed

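Liver RNA was sequenced in 18 libraries, and the authors deposited whole-number read counts per gene for each library. The submitters' processing notes name bcl2fastq 2.20, cutadapt 4.6, HISAT2 2.2.1, HTSeq 2.0.2 and mm10, and the study's methods name GENCODE M21. Groups were taken from the sample labels. Counts were fitted over all 18 libraries with edgeR 4.0.16 in R 4.3.3 (filterByExpr, TMM, quasi-likelihood test, Benjamini-Hochberg adjustment over 12847 genes, threshold 0.05). All p-values measure the spread between these samples. The interaction with the Xist class, set by whether Xist exceeded 4 summed Y-linked genes, was fitted the same way. CPM used TMM-scaled library sizes, log2 CPM a prior count of 2, and TPM merged exon lengths. The filter, the scaling and the tool can change calls, so DESeq2 1.42.0, limma 3.58.1 (voom with quality weights), total counts, no filter, the Xist class, a replicate block, each class alone, leaving out each library, and leaving out the 10 most abundant genes were tried. The fit without the 3 Xist-high BDF1 libraries was added after the data were seen.

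No 2 libraries of a group were duplicates, since the lowest chi-square per gene was 10.5. Same-numbered libraries of different groups deviated together from their group means (correlation 0.231 to 0.654 over 18 pairs), but after means of group and class were subtracted the range was -0.604 to 0.281, as numbers 1 to 3 were Xist-low and 4 to 6 Xist-high in every group. The labels do not say what a number shares. The members and lists were chosen with earlier results of these data known. Named genes were the members, the called genes of the lists, and the 10 most and 3 least similar to Bmf. A few of these are left unreported. The scripts were tested on simulated data.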

Additional observations from a re-analysis of the deposited data

Results flagged for a closer look

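The difference of Bmf between BDF1 mice and pups was larger in Xist-high than in Xist-low libraries, with an edgeR interaction of -2.15 on the log2 scale for Space pups and of -2.56 for Ground pups. With 1 library left out it lay between -2.51 and -1.81 for Space pups and between -2.90 and -2.20 for Ground pups. Bmf was chosen on these contrasts, so the values are a description without a test. Both interactions share the 6 control libraries.

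For Bcl2l1, BDF1 replicate 4 stood apart from the other controls at 35.0 CPM, with the next at 32.5 CPM. The gap made up 0.629 of the range of the group, above Dixon's critical value for 6 samples. This was 1 of 27 sets examined, and chance gives 1.35.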

How the results depend on the processing

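The log2 change of Bmf stayed negative in both groups of pups in every fit. Bmf was chosen for this fall in these same libraries, so its sign across fits is a description and no separate support. It was -1.95 and -2.05 (Space and Ground) with voom, -3.32 and -3.68 among Xist-high libraries, -1.16 and -1.13 among Xist-low libraries and -0.96 and -1.14 without the 3 Xist-high controls. With each library left out in turn it lay between -2.92 and -2.22 and between -3.10 and -2.40. Between pup groups it was -0.030 among Xist-low and 0.37 among Xist-high libraries, and lay between 0.09 and 0.28 in the other fits. Of the 8 other members, Space calls numbered 2 with total counts, DESeq2, the Xist class or Xist-low libraries, 3 with voom and 1 with the replicate block, and 0 to 1 with a library left out. Ground calls numbered 1 with total counts.

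Over all genes, Space calls were 1030 with DESeq2, 1304 with voom, 281 without the filter, 1330 with the Xist class, 774 with the replicate block, 1090 among Xist-low libraries, 114 without the 3 Xist-high controls, and 231 (without BDF1 replicate 4) to 593 with a library left out. Ground calls were 943 with total counts, 1087 with DESeq2, 218 without the filter, 1442 with the Xist class, 843 with the replicate block, 895 among Xist-high libraries, 15 without the 3 controls, and 141 (without BDF1 replicate 5) to 667 with a library left out. Between pup groups they were 30 with DESeq2, 14 among Xist-low libraries and 0 to 6 with a library left out. Interaction calls were 841 (Space) and 776 (Ground) with DESeq2, 1539 (Ground) with total counts, and 230 to 610 and 137 to 770 with a library left out; between pup groups they were 32 with DESeq2, 8 without the filter and 0 to 23. The cause was not tested.

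Members whose uncalled direction turned were Bcl2l11 in Space (-0.20 with total counts, -0.44 with voom, -0.025 with the Xist class, -0.58 among Xist-low libraries, -0.23 to 0.30 with a library left out), Bcl2l11 in Ground (-0.12, -0.20 with voom, -0.41 among Xist-low libraries, -0.15 to 0.43) and between pup groups (-0.51 to 0.29). Mcl1 gave -0.26, -0.068 with voom, -0.027 among Xist-low libraries and -0.087 to 0.091 in Space, -0.24, -0.054 among Xist-high libraries and -0.088 to 0.090 in Ground, and 0.093 among Xist-high libraries and -0.10 to 0.10 between pup groups. Bcl2 in Ground gave -0.15 with total counts and -0.0023 to 0.23. Between pup groups, Xist-high libraries gave -0.040 for Bcl2, -0.033 for Bad and 0.26 for Bik, total counts gave 0.0037 for Bak1, and a library left out gave -0.068 to 0.043 for Bak1, -0.034 to 0.053 for Bad, -0.40 to 0.10 for Bik and -0.031 to 0.20 for Bcl2l1. By rank, 1 of the 10 genes most like Bmf was shared. Bmf had 21 to 42 counts in a pup library. The SE of its difference between pup groups was 0.50 in the main fit, whose estimate of spread takes in the controls of both classes. Among Xist-low libraries this SE was 0.29 and among Xist-high ones 0.38. Differences between pup groups that were small against these errors were not detectable.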
